A study of Mus musculus with 22 samples.

Results

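The semaphorins, plexins, ephrins, Eph receptors, Slits and netrins are the classical guidance genes. Their RNA levels were compared here between tissues of pancreatic neuroendocrine tumour growth in the mouse. A gene was a member if its probe set carried 1 symbol in the array annotation and that symbol belonged to semaphorin classes 3 to 7, the plexins, the ephrins, the Eph receptors, Slit1 to Slit3 or the numbered netrins. This gave 57 of the 19938 genes measured: 20 semaphorins, 9 plexins, 8 ephrins, 13 Eph receptors, 3 Slits and 4 netrins. Ephb2 had no probe set under this rule and was not analysed here. The rule reads symbols and no levels, but it was written with earlier results of these data known.

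The 22 arrays covered 6 tissues: 3 samples each of normal, hyperplastic and angiogenic islets, 5 of islet tumours, 5 of met-like primaries and 3 of liver metastases. Every sample, the normal islets included, is labelled as coming from the RIP1-TAG2 (RT2) model, in which the rat insulin promoter drives the SV40 T antigen in beta cells. No age, sex or treatment is given in the labels, and they do not say how a primary was judged met-like or which samples came from separate animals, so p-values measure only the spread between these samples. Total RNA of whole islets or dissected lesions was hybridised to Affymetrix Mouse Gene 1.0 ST arrays, and the values are log2 intensities, so that differences are log2 fold changes. Levels are compared between tissues for 1 gene at a time, never between genes, because probe sets differ in brightness. A gene was called higher or lower where limma's moderated test gave an adjusted p (Benjamini-Hochberg over all 19938 genes) below 0.05, and differences are given ± SE.

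Guidance cues steer growing axons and migrating cells by attraction or repulsion. Semaphorins act through plexins, and most secreted class 3 semaphorins also need a neuropilin coreceptor, whereas ephrins and Eph receptors are both held on cell surfaces and signal where cells touch. Slits signal through Robo receptors and netrins through Dcc, neogenin, Dscam and the Unc5 receptors. Outside the nervous system these families shape blood vessels, and ephrin-A and EphA proteins between beta cells are known to take part in the control of insulin secretion.

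The tissues carried the markers of their labels in part. The beta cell gene Ins2 had a mean of 10.99 in normal islets, 11.01 in tumours, 10.17 in met-like primaries and 10.34 in metastases. The summed level of 7 beta cell markers was already lower in tumours. Its mean was 14.67 in normal islets, 14.08 in tumours, 12.75 in met-like primaries and 12.99 in metastases. The summed level of 9 hepatocyte markers lay between 14.4 and 14.8 in the liver metastases, above all other samples. On the same sum normal islets read 12.74 to 12.87, although their level of the hepatocyte marker Alb was only 6.12 to 8.10. Alb reached 11.81 in angiogenic islets and 11.78 in met-like primaries. What the sum reflects outside liver was not tested. Xist, an RNA made from the inactive X chromosome, was between 10.67 and 11.41 on the 9 islet arrays. It was between 5.33 and 6.46 on the 13 arrays of tumours and metastases. Islet against tumour differences therefore cannot be told apart from the animals' sex or whatever else separates these arrays. Endothelial, fibroblast and hepatocyte marker levels stand beside the results they move with. In such bulk samples, fewer cells of a type and less RNA per cell cannot be told apart.

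Most guidance genes varied between the tissues. Over the 6 tissues 45 of the 57 members differed in limma's F test, against 58.7% of all genes. All 3 Slits, all 4 EphB receptors, 8 of 9 plexins, 17 of 20 semaphorins, 7 of 9 EphA receptors, 5 of 8 ephrins and 1 of 4 netrins varied, and differences between the families were not tested. The largest range of tissue means belonged to Sema3a, a secreted repellent of axons and vessels, at 3.75 on the log2 scale. Slit1 followed with 2.48, Sema5a with 2.43 and Plxnc1 with 2.38. The 12 members that did not pass the test were Efna3, Efna4, Efnb2, Epha5, Epha6, Ntn3, Ntn4, Ntn5, Plxnb3, Sema3b, Sema4b and Sema5b.

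**Figure D1:**
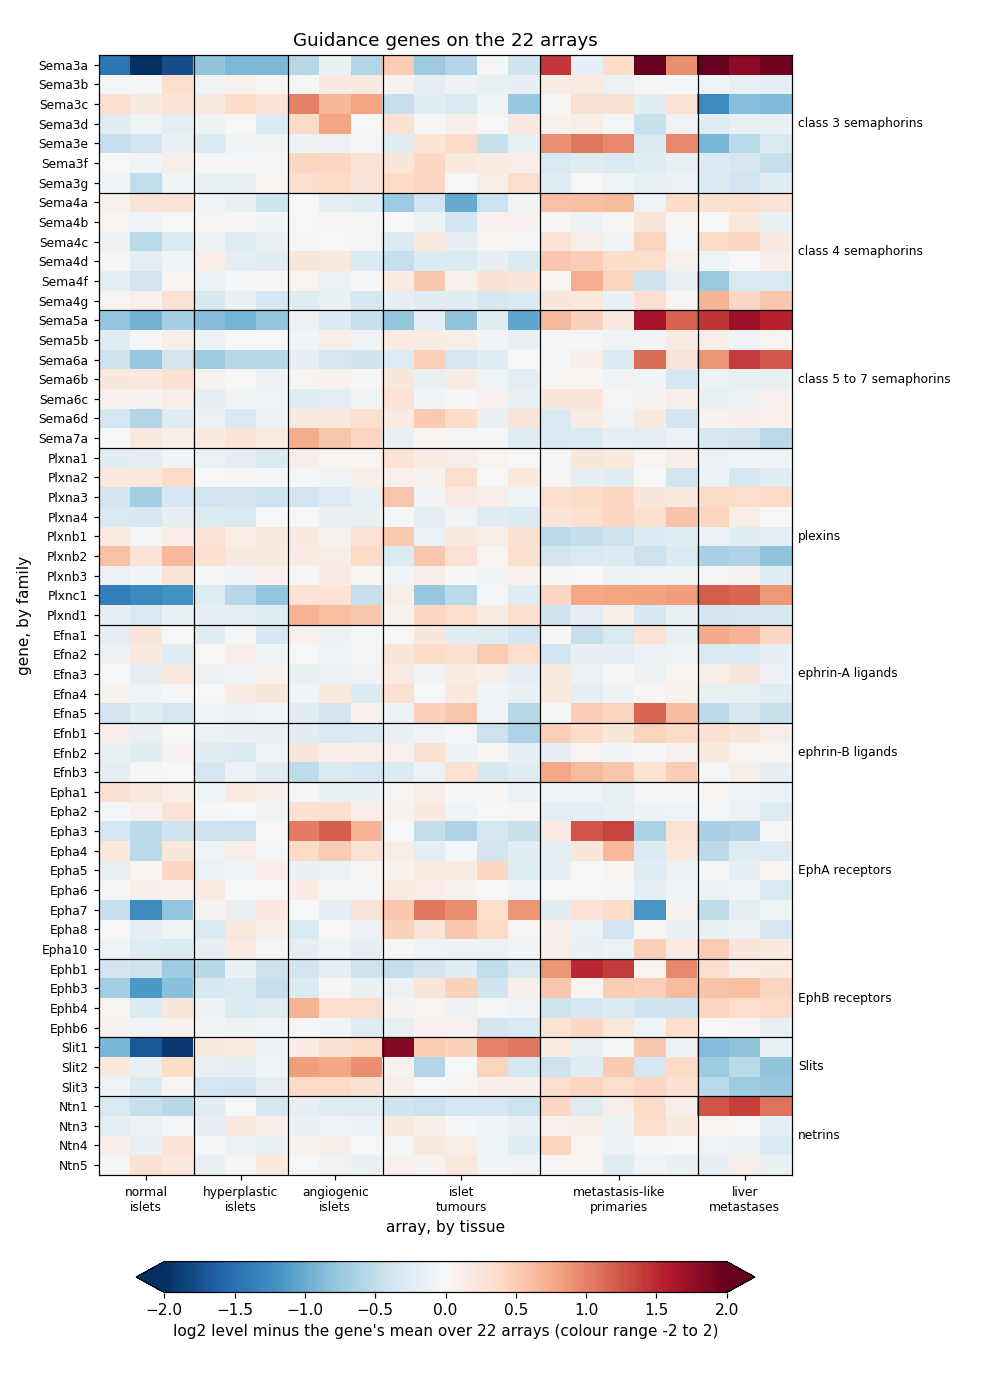
Level of each of the 57 guidance genes (rows, by family) on each of the 22 arrays (columns, by tissue), as log2 level minus the gene's own mean over the arrays. Sema3a, Sema5a and Plxnc1 run from blue in normal islets to red in liver metastases, Slit1 is reddest in the islet tumours, and Ntn1 is red mainly in the metastases.

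The step from normal to hyperplastic islets moved few members. Slit1 and the semaphorin receptor Plxnc1 rose and the transmembrane semaphorin Sema4g fell, 3 of 57 members (5.26%) against 8.64% of all genes (4.46% higher and 4.17% lower). The median difference of the members was 0.01, beside -0.01 over all genes. Slit1, a secreted repellent, read 7.39, 6.61 and 6.37 in the normal islets and 8.49, 8.46 and 8.20 in the hyperplastic islets. All 3 hyperplastic samples lay above all 3 normal ones, a difference of 1.60 ± 0.29 or 3.02-fold (adjusted p = 0.000824). Plxnc1, the receptor of Sema7a, read 5.87, 5.96 and 6.04 in normal islets, and its hyperplastic samples had a mean of 6.71 ± 0.27 (SD, n = 3) and a lowest value of 6.46. These groups did not overlap either (0.76 ± 0.21, adjusted p = 0.0242). Sema4g read 6.62, 6.67 and 6.86 in normal and 6.26, 6.44 and 6.22 in hyperplastic islets, again without overlap (-0.41 ± 0.11, adjusted p = 0.0186).

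Of these calls, that of Slit1 held when any 1 sample was left out. The Plxnc1 call was lost without normal islet sample 1, 2 or 3 or hyperplastic sample 1 or 2 (adjusted p 0.0506 to 0.132), and the Sema4g call without normal sample 3 or hyperplastic sample 1 or 3 (adjusted p 0.0716 to 0.103). The count fell to 1 without normal sample 3 and to 1 without hyperplastic sample 1. The title codes pair these 2 groups, and with the pairs as a block 5 members were called: the receptor Epha7 (0.88 ± 0.24, adjusted p = 0.0244) and Sema3a (0.90 ± 0.26, adjusted p = 0.0377) joined. Among pathway genes, Dpysl5, a collapsin response mediator protein downstream of semaphorins, rose by 0.87 ± 0.17 (adjusted p = 0.00168), and none of the 2 neuropilins, 4 Robo receptors or 7 netrin receptors passed. Of the cell type markers, 7 acinar ones spread widely, with a summed level of 12.14 to 15.53 in normal and 13.56 to 15.64 in hyperplastic islets. The acinar marker Cpa1 read 12.69, 13.12 and 9.67 in normal and 12.85, 13.19 and 11.4 in hyperplastic islets. Macrophage markers rose, 2 of 8, with a summed level of 10.15 to 10.50 in normal and 10.62 to 11.27 in hyperplastic islets. Of 7 lymphocyte markers 1 rose, with summed levels of 9.41 to 9.60 and 10.03 to 11.41. Their part in the guidance gene differences was not tested.

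Angiogenic islets, the stage named for the onset of new vessel growth, differed from hyperplastic islets in 6 members, all higher: Slit3, Slit2, Plxnd1, Ephb4, Sema3f and Sema7a. That is 10.5% of the members, against 2.53% of all genes, of which 2.29% were higher. The median difference of the members was 0.08, beside -0.04 over all genes. Slit3, a secreted Robo ligand, read between 7.08 and 7.27 in hyperplastic and 7.85, 7.84 and 7.76 in angiogenic islets (0.67 ± 0.08, adjusted p = 8.5e-05). The vessel plexin Plxnd1, a receptor of Sema3e on endothelium, read 8.10, 8.08 and 8.04 in hyperplastic and 8.94, 8.86 and 8.80 in angiogenic islets (0.79 ± 0.11, adjusted p = 0.000187). Ephb4, the venous receptor of ephrin-B2, read 7.59, 7.41 and 7.45 in hyperplastic and 8.38, 8.01 and 8.04 in angiogenic islets (0.66 ± 0.11, adjusted p = 0.000986). In all of these genes every angiogenic sample was above every hyperplastic one, and for Ephb4 sample 1 stood above the other angiogenic samples.

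Slit2 rose by 0.98 ± 0.23 (adjusted p = 0.0229), from a mean of 6.21 to 7.19. Sema3f, a neuropilin-2 ligand known as a repellent of vessels, rose by 0.38 ± 0.08 (adjusted p = 0.00912). Efnb2, the ligand of Ephb4, differed by 0.35 ± 0.11 and did not pass (adjusted p = 0.0962). The sixth gene, Sema7a, a membrane-anchored semaphorin, rose by 0.36 ± 0.09 (adjusted p = 0.0352). With 1 sample left out, the differences stayed at 0.94 to 1.02 for Slit2, 0.36 to 0.43 for Sema3f and 0.27 to 0.43 for Sema7a, but not all calls held. The Sema3f call was lost without angiogenic sample 1 (adjusted p = 0.0509) or 2 (adjusted p = 0.0567), the Slit2 call without any single hyperplastic sample or angiogenic sample 1 or 2 (adjusted p 0.0661 to 0.0985), and the Sema7a call without any single one of the same samples (adjusted p 0.0718 to 0.251). The count was 3 without angiogenic sample 1, 3 without angiogenic sample 2 and 10 without angiogenic sample 3. The title codes pair these groups too, and with the pairs as a block the receptor Epha3 (1.25 ± 0.33, adjusted p = 0.0478) and the ligand Sema3d (0.53 ± 0.13, adjusted p = 0.0281) joined the called members.

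Vessel and stromal markers moved in the same step. Of the 10 endothelial markers 6 rose and none fell, with a summed level of 11.6 to 11.7 in hyperplastic and 12.2 to 12.6 in angiogenic islets. All 7 fibroblast and matrix markers rose (median 1.91), 5 of 8 pericyte and smooth muscle markers rose and 6 of 8 macrophage markers rose. Lymphocyte markers had a summed level of 10.03 to 11.41 in hyperplastic and 9.60 to 12.05 in angiogenic islets. The hepatocyte marker Alb read 7.74, 8.54 and 6.97 in hyperplastic and 8.02, 11.30 and 11.81 in angiogenic islets. The part of these cell types in the guidance gene differences was not tested. Of the neuropilins, Nrp2 rose by 0.72 ± 0.14 (adjusted p = 0.00344), from 7.48, 7.04 and 7.13 to 7.96, 7.76 and 8.09, without overlap. Nrp1 differed by 0.52 ± 0.22 and did not pass (adjusted p = 0.282), and neither did any of the 4 Robo receptors. The endothelial Robo4 came closest at 0.38 ± 0.10 (adjusted p = 0.0518).

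**Figure D2:**
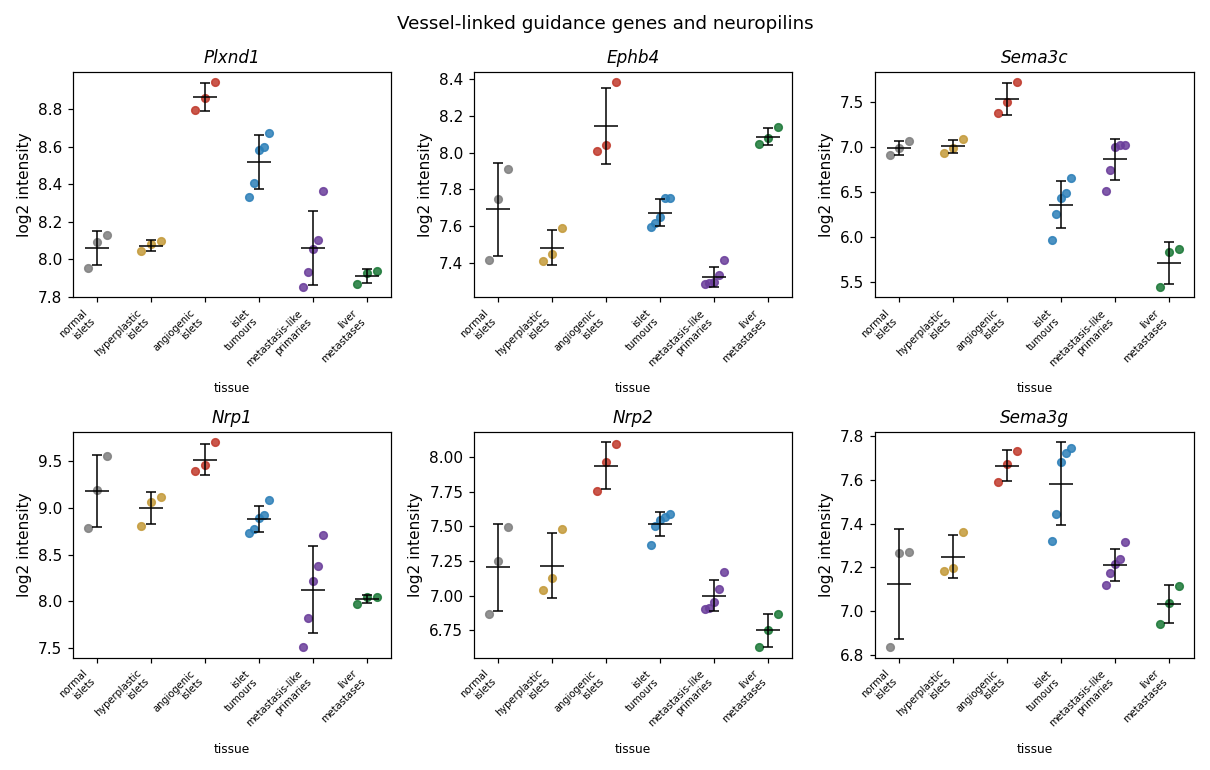
Log2 intensity of 4 guidance genes known from vessels and of the neuropilins Nrp1 and Nrp2, by tissue. Each point is 1 array (points are placed from lowest to highest within a tissue), and lines mark the mean and ± 1 SD. Plxnd1 and Nrp2 are highest in angiogenic islets and low in metastases, while Ephb4 is high in both.

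The promoters of Slit3 and Ephb4 are shown because these genes rose together here and moved apart later. Each is the 250 bases before the start of the RefSeq transcript on GRCm38.p6, read 5′ to 3′ on the gene's strand, with the letters GGGCGG (the core of a GC box), or the same on the other strand, in capitals. Slit3 is on the + strand at chr11:35121206-35121455 and Ephb4 on the + strand at chr5:137349859-137350108.
Slit3: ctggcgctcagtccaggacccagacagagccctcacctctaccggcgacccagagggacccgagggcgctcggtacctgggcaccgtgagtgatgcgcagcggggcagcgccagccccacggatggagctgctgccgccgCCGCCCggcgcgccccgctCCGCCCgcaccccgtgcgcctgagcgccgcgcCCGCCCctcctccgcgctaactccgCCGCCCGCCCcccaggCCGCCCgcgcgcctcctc
Ephb4: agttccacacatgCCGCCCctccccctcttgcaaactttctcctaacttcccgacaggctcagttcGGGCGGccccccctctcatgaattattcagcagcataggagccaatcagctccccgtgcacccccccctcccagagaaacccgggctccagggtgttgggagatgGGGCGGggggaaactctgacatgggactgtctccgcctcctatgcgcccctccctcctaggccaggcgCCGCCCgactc
The Slit3 window held 6 matches and the Ephb4 window 4, counting overlapping ones. Such a match stood in 32.7% of the 32851 promoter windows of this length and in 76.2% of the 63 windows found for 49 of the members. Its letters are all G or C, and the share of G and C was not matched between these sets. That share was 78.8% for Slit3 and 64.0% for Ephb4, beside a median of 52.4% over all windows. The letters ACGTG, the core of a hypoxia response element, were in neither window and were in 16.6% of all windows. A match is a run of letters and not a measured binding site.

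In the islet tumours part of the angiogenic rise was gone. Against angiogenic islets, 7 members were lower (Sema3c, Sema7a, Ephb4, Slit2, Epha3, Slit3 and Plxnd1) and 3 were higher (Efna2, Epha8 and Plxna3), 17.5% of the members against 9.54% of all genes (3.09% higher and 6.45% lower). The median difference of the members was -0.04, beside 0.05 over all genes. Sema3c, a secreted ligand of neuropilins and Plxnd1, read 7.72, 7.38 and 7.50 in angiogenic islets and 6.25, 6.49, 6.43, 6.66 and 5.96 in tumours, without overlap (-1.18 ± 0.14, 2.26-fold lower, adjusted p = 2e-05). Sema7a read 8.49, 8.29 and 8.17 in angiogenic islets and 7.59, 7.79, 7.71, 7.71 and 7.52 in tumours, also without overlap (-0.65 ± 0.08, adjusted p = 3.3e-05). Epha3, an ephrin-A receptor, read 6.94, 7.13 and 6.61 in angiogenic islets and between 5.31 and 5.91 in tumours (-1.35 ± 0.30, adjusted p = 0.0071). All 5 tumours were below all 3 angiogenic samples for each of these genes, and Epha3 is among the 5 members whose mean lay in the dimmest 25% of all genes.

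Ephb4 fell by 0.47 ± 0.10 (adjusted p = 0.00368), Slit2 by 0.93 ± 0.21 (adjusted p = 0.0069), Slit3 by 0.29 ± 0.07 (adjusted p = 0.0147) and Plxnd1 by 0.35 ± 0.10 (adjusted p = 0.0257). All of these fell by less than they had risen in the step before. Sema7a fell by more, and Sema3f, which had risen too, was not called lower. Sema3c and Epha3 had not been called in that step. This comparison shares the angiogenic samples with the step before, so its values are not separate evidence. The ligand Efna2 rose by 0.38 ± 0.09 (adjusted p = 0.0112), the receptor Epha8 by 0.48 ± 0.13 (adjusted p = 0.0213) and Plxna3, a receptor component for class 3 semaphorins, by 0.40 ± 0.11 (adjusted p = 0.0261). Without angiogenic sample 1 the calls of Ephb4 (adjusted p = 0.0549), Slit3 (0.0884), Plxnd1 (0.155), Epha8 (0.163) and Plxna3 (0.174) were lost and the count was 5. Without angiogenic sample 2 those of Efna2 (0.0611), Slit3 (0.0636), Plxnd1 (0.0769) and Plxna3 (0.0781) were lost and the count was 6, and without tumour sample 1 that of Plxnd1 (0.0589).

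The markers moved back as well. Of the endothelial markers 6 of 10 fell (median -0.58, summed level 11.5 to 12.0 in tumours), all 7 fibroblast markers fell (median -1.62) and 5 of 8 pericyte markers fell. Of 7 lymphocyte markers 6 fell, as did 7 of 9 hepatocyte markers and 5 of 6 alpha, delta and PP cell markers. Both neuropilins fell, Nrp1 by 0.63 ± 0.19 (adjusted p = 0.0442) and Nrp2 by 0.42 ± 0.12 (adjusted p = 0.0305), and so did Robo4, by 0.52 ± 0.09 (adjusted p = 0.000972). The hepatocyte marker Alb, which read 8.02, 11.30 and 11.81 in angiogenic islets, was between 6.04 and 8.24 in tumours. The part of these cell types in the guidance gene differences was not tested.

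Set against normal islets, the tumours had higher Slit1, Epha7, Sema3a, Plxnc1 and Ephb3 and lower Sema4a and Sema3c. Of the members 13 were higher and 4 lower, 29.8% against 29.0% of all genes (13.0% higher and 16.1% lower), so that the count as a whole was at the background. The median difference was 0.08, beside -0.01 over all genes. With each array centred on its own median the split was 12 higher and 9 lower, and after quantile normalization 12 and 7. Slit1 read 10.13, 8.80, 8.75, 9.28 and 9.36 in the tumours, all above the highest normal islet at 7.39, and tumour sample 1 stood above the others. The difference was 2.48 ± 0.26 or 5.56-fold (adjusted p = 2.44e-07), the largest of any member in this comparison. Epha7 read 8.29, 7.48 and 7.95 in normal islets and 9.28, 9.79, 9.67, 9.09 and 9.62 in tumours, without overlap (1.59 ± 0.26, adjusted p = 6.27e-05). Ephb3 read 6.59, 6.11 and 6.44 in normal islets and 7.14, 7.51, 7.73, 6.87 and 7.38 in tumours (0.95 ± 0.16, adjusted p = 7.88e-05). For each of these receptors the lowest tumour was above the highest normal islet. Sema3a read 6.18, 5.51 and 5.84 in normal islets and 8.13, 6.89, 7.04, 7.58 and 7.22 in tumours, again without overlap (1.53 ± 0.34, 2.88-fold, adjusted p = 0.00139).

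Plxnc1 rose by 1.01 ± 0.19 (adjusted p = 0.000248) and Plxna3 by 0.61 ± 0.11 (adjusted p = 0.00025). The 4 members that were lower were the semaphorins Sema3c (-0.63 ± 0.14, adjusted p = 0.0016), Sema4a (-0.72 ± 0.17, adjusted p = 0.00242) and Sema4g (-0.39 ± 0.10, adjusted p = 0.00395) and the receptor Epha1 (-0.20 ± 0.07, adjusted p = 0.0405). The Epha1 call was lost without normal sample 1 or 2 or tumour sample 1, 3 or 5 (adjusted p 0.0509 to 0.189). With the title code as a block, the calls of Sema4g (-0.26 ± 0.15, adjusted p = 0.216) and Epha1 (-0.19 ± 0.11, adjusted p = 0.230) were lost. Those of Sema3c (adjusted p = 0.011) and Sema4a (adjusted p = 0.0449) held. Plxna3 had a mean of 7.67 in normal, 7.74 in hyperplastic and 7.88 in angiogenic islets, against 8.28 in tumours, 8.44 in met-like primaries and 8.51 in metastases. It is X-linked, as are Efnb1 and Plxnb3, and its step falls where Xist changes. Of the cell type markers, 5 of 8 macrophage and 4 of 7 fibroblast markers were higher in tumours than in normal islets, and 5 of 6 alpha, delta and PP cell, 4 of 7 beta cell and 5 of 9 hepatocyte markers were lower. Their part in the guidance gene differences was not tested. Of the 13 Eph receptors, 3 were higher in tumours (Epha7, Ephb3 and Epha8), 1 was lower and 9 did not pass. Over the 3 tumour and metastasis tissues against the 3 kinds of islet, 28 members were called, 49.1% against 49.1% of all genes (23.3% higher and 25.8% lower). Of them 17 were higher and 11 lower, or 15 and 15 with centred arrays and 16 and 15 after quantile normalization.

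**Figure D3:**
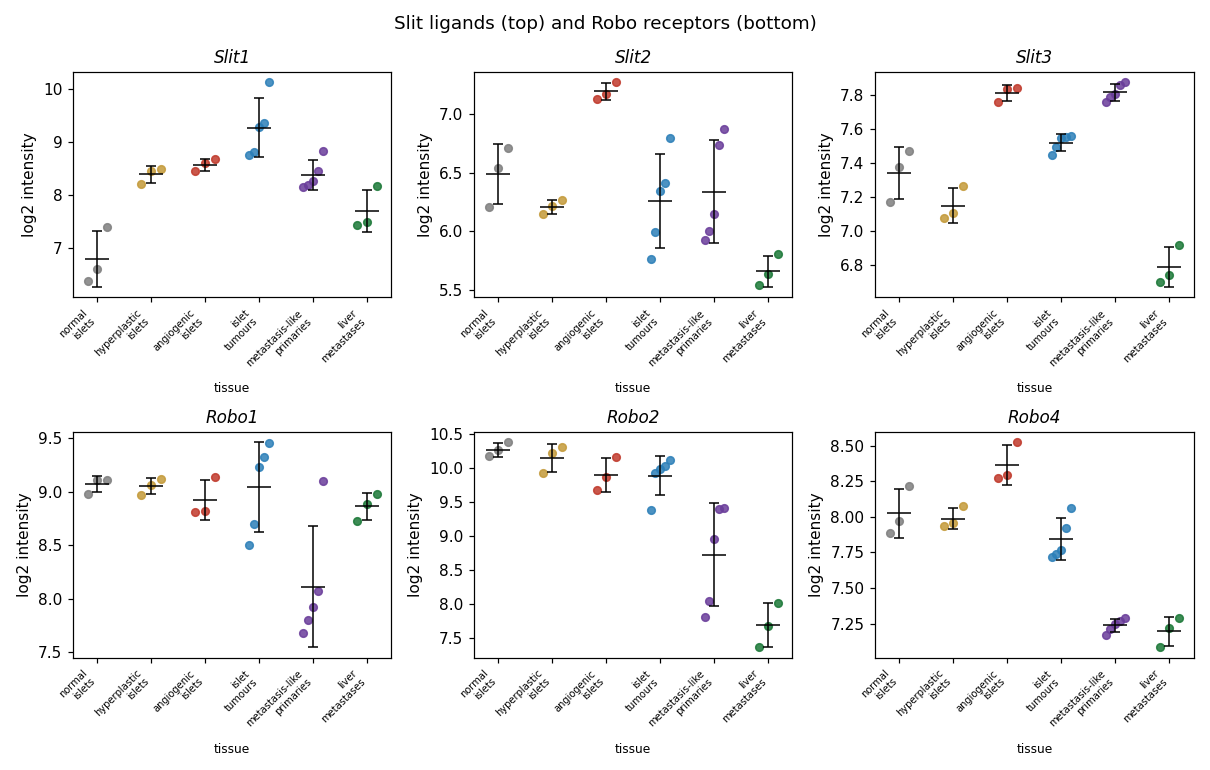
Log2 intensity of the 3 Slit ligands (top) and of Robo1, Robo2 and Robo4 (bottom), by tissue. Each point is 1 array (placed from lowest to highest within a tissue), and lines mark the mean and ± 1 SD. Slit1 is highest in the islet tumours, Slit3 is high in angiogenic islets and met-like primaries and lowest in metastases, and Robo2 and Robo4 are low in met-like primaries and metastases.

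The met-like primaries differed from the islet tumours in 29 members, the most of any comparison between neighbouring tissues in the order used here. This comparison also has the largest groups. The labels do not place met-like primaries after islet tumours in time. Rises and falls here are therefore differences between tissues, not changes followed over time. Of the 57 members 17 were higher and 12 lower, 50.9% against 26.5% of all genes (12.3% higher and 14.2% lower). The members' median difference was 0.08, beside -0.02 over all genes. With the dimmest 25% of genes left out, 29 of 52 members were called against 35.2% of all genes. The 17 higher members held 7 semaphorins and 5 genes of the EphB and ephrin-B family. The 12 lower members held 4 plexins, 3 semaphorins and the ligand Efna2 with its possible receptors Epha7 and Epha8. Leaving out each array of either group in turn gave 26 to 30 calls.

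The EphB and ephrin-B family supplied 5 of the higher members and 1 of the lower ones. Ephb1, a receptor for ephrin-B ligands, read 6.44, 6.52, 6.66, 6.40 and 6.60 in tumours and 7.78, 8.41, 8.29, 6.94 and 7.85 in met-like primaries. All met-like samples were above all tumours, with III-8016-MLP the lowest by far, and the difference was 1.33 ± 0.18 or 2.51-fold (adjusted p = 7.7e-06). Its ligand Efnb1 read 7.99, 8.04, 8.08, 7.69 and 7.51 in tumours and 8.60, 8.50, 8.35, 8.57 and 8.50 in met-like primaries, without overlap (0.64 ± 0.09, adjusted p = 1.27e-05). Efnb3, another ephrin-B ligand, rose by 0.67 ± 0.11 (adjusted p = 4.7e-05), from a mean of 7.48 to 8.16, and the groups overlapped by 1 tumour at 7.90. Ephb6, a member without kinase activity, and Ephb3 also rose, Ephb6 by 0.37 ± 0.10 (adjusted p = 0.00615) and Ephb3 by 0.38 ± 0.14 (adjusted p = 0.0428). The fourth EphB receptor, Ephb4, went the other way: it read 7.59 to 7.75 in tumours and 7.28 to 7.41 in met-like primaries, without overlap (-0.35 ± 0.08, adjusted p = 0.00298). The Ephb3 call was lost without tumour sample 1, 4 or 5 or met-like sample 1, 3, 4 or 5 (adjusted p 0.0584 to 0.14).

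Among the semaphorins, Sema5a, a transmembrane ligand of Plxnb3 that can attract or repel, read 6.75 to 7.60 in tumours and 8.44, 8.26, 7.98, 9.44 and 8.98 in met-like primaries. The groups did not overlap, and the rise was 1.43 ± 0.21 or 2.70-fold (adjusted p = 1.64e-05). The class 4 semaphorins Sema4a and Sema4d, both also known from immune cells, rose by 0.94 ± 0.15 (adjusted p = 3.6e-05) and 0.66 ± 0.10 (adjusted p = 3.6e-05), and Sema4d did so without overlap. Sema3a rose by 1.15 ± 0.29 (adjusted p = 0.00474), but its met-like samples spread from 7.46 to 9.61 and overlapped the tumours, which reached 8.13. Sema3e, the ligand of Plxnd1, rose by 0.76 ± 0.20 (adjusted p = 0.00721), with 4 met-like samples between 8.29 and 8.43 and III-8016-MLP at 7.09. Sema3f ran opposite: it read 8.61, 8.78, 8.56, 8.52 and 8.50 in tumours and 8.07, 8.12, 8.08, 8.13 and 8.21 in met-like primaries, tight groups without overlap (-0.47 ± 0.06, adjusted p = 5.43e-06).

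The promoters of Sema5a and Ephb1, members with the greatest rises in this comparison, differ in base makeup. Sema5a is on the + strand at chr15:32244563-32244812 and Ephb1 on the - strand at chr9:102354694-102354943 (GRCm38.p6), again with GGGCGG on either strand in capitals.
Sema5a: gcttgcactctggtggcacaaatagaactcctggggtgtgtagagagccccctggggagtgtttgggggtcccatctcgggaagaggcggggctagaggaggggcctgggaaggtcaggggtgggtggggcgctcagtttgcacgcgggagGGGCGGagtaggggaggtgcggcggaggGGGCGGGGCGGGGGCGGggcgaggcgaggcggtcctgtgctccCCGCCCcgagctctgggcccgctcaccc
Ephb1: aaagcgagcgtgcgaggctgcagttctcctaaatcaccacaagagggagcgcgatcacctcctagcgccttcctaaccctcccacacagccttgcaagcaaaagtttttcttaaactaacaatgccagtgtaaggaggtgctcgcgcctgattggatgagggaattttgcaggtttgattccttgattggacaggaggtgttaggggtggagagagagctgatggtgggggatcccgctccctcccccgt
The Sema5a window held 5 matches, overlapping ones counted, and 17 CpG pairs, and the Ephb1 window held no match and 10 CpG pairs. Neither held ACGTG.

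The plexins split. Plxnc1 rose from a mean of 6.96 to 7.98 (1.01 ± 0.16, adjusted p = 5.01e-05), and its 5 met-like samples, at 7.67 to 8.08, were above all tumours. Plxna4, a receptor component for Sema3a and for Sema6a, rose by 0.54 ± 0.09 (adjusted p = 5.33e-05), without overlap between 7.04 to 7.28 in tumours and 7.58 to 7.89 in met-like primaries. Plxnb1, the main receptor of Sema4d, fell by 0.59 ± 0.09 (adjusted p = 3.35e-05), from 8.39 to 9.02 in tumours to 7.98 to 8.25. Sema4d and its receptor so moved in opposite directions. Plxnb2 fell by 0.52 ± 0.11 (adjusted p = 0.00134), Plxnd1 by 0.46 ± 0.08 (adjusted p = 0.000225) and Plxna2 by 0.29 ± 0.08 (adjusted p = 0.0102). The ligand Efna2 fell by 0.54 ± 0.08 (adjusted p = 1.77e-05), and its 7.18 to 7.48 in met-like primaries lay below all tumours, at 7.79 to 8.07. The receptors Epha7 (-0.88 ± 0.22, adjusted p = 0.00477) and Epha8 (-0.44 ± 0.11, adjusted p = 0.00441) fell with it, while the dim Epha3 rose by 0.87 ± 0.26 (adjusted p = 0.0163), a call lost without met-like sample 2 (adjusted p = 0.0582) or 3 (adjusted p = 0.0564).

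Receptors and effectors outside the members changed too, in lists to be read against the 12.3% of all genes that were higher and the 14.2% that were lower. Of 4 Robo receptors 3 fell: Robo4 by 0.61 ± 0.08 (adjusted p = 4.18e-06), Robo2 by 1.17 ± 0.25 (adjusted p = 0.00103) and Robo1 by 0.93 ± 0.21 (adjusted p = 0.00163). The ligand Slit1 fell in the same comparison (-0.89 ± 0.22, adjusted p = 0.00474), and Slit3 rose (0.30 ± 0.06, adjusted p = 0.0011). Of 7 netrin receptors 4 rose, led by Dscam at 1.93 ± 0.20 (adjusted p = 2.83e-07) and Dcc at 1.48 ± 0.18 (adjusted p = 1.35e-06), and Unc5a fell by 0.81 ± 0.11 (adjusted p = 5.36e-06). The ligand Ntn1 rose by 0.54 ± 0.10 (adjusted p = 0.000294). Both neuropilins fell, Nrp1 by 0.75 ± 0.17 (adjusted p = 0.00161) and Nrp2 by 0.52 ± 0.10 (adjusted p = 0.000673). Of 18 Eph effectors and sheddases 10 rose and 3 fell, the largest rise being that of Chn2, a Rac GTPase-activating protein of the chimaerin family. It read 6.70 to 7.04 in tumours and 8.69 to 9.14 in met-like primaries (1.99 ± 0.09, adjusted p = 1.42e-12). Of 20 plexin and semaphorin effectors 6 rose and 2 fell, and of 12 Slit-Robo effectors 3 rose and 2 fell.

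Cell type markers moved beside these results. Of the endothelial markers 8 of 10 fell (median -0.79, summed level 10.8 to 11.2 in met-like primaries), and 7 of 7 beta cell markers fell (median -1.68). Of 7 neuron markers 3 rose and 1 fell, and none of 6 glial markers was called. Of 5 duct markers 2 fell, with a summed level of 10.92 to 11.60 in tumours and 9.41 to 10.02 in met-like primaries. Of 9 hepatocyte markers 3 rose and 1 fell, with a summed level of 11.39 to 12.07 in tumours and 12.75 to 13.36 in met-like primaries. Normal islets lay at 12.74 to 12.87 on this sum. Of 6 alpha, delta and PP cell markers 1 rose and 4 fell. The sample III-8016-MLP stood apart: it had the highest Sema3a (9.61), Sema5a (9.44), Sema6a (9.10) and Robo1 (9.09) and the lowest Epha7 (7.58), Ephb1 (6.94) and Sema3e (7.09) of the met-like primaries, and its Alb read 11.78 where the others read 7.61 to 9.68. Without it the difference was 0.88 for Sema3a (adjusted p = 0.0147), 1.23 for Sema5a (adjusted p = 1.99e-05), 1.56 for Ephb1 (adjusted p = 5.71e-09) and 1.01 for Sema3e (adjusted p = 1.39e-05). Of the 46 called differences that involve met-like primaries in a comparison with tumours or metastases, 44 were still called without it. The part of the cell types in these differences was not tested.

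**Figure D4:**
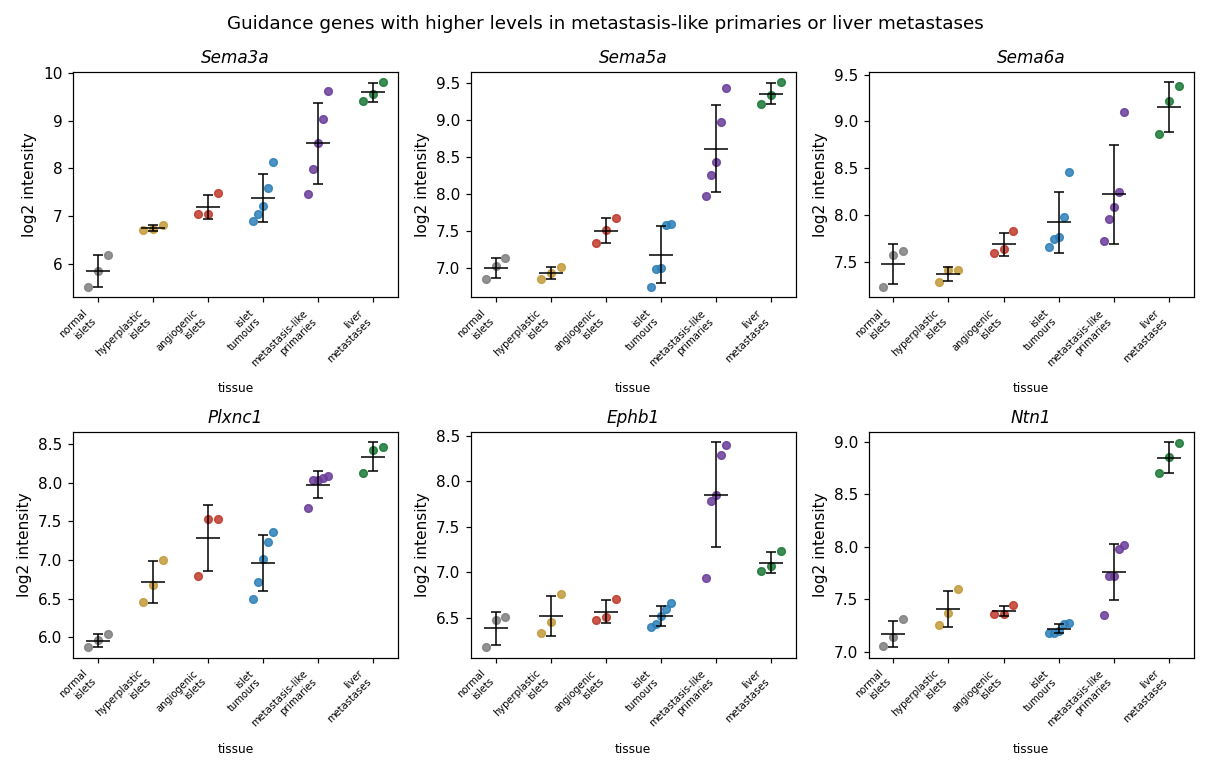
Log2 intensity of 6 guidance genes with higher levels in met-like primaries or liver metastases, by tissue. Each point is 1 array (placed from lowest to highest within a tissue), and lines mark the mean and ± 1 SD. Sema3a, Sema5a, Sema6a, Plxnc1 and Ntn1 are highest in the liver metastases, and Ephb1 is highest in the met-like primaries.

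Liver metastases differed from met-like primaries in 17 members, 7 higher and 10 lower, 29.8% against 15.7% of all genes (7.80% higher and 7.87% lower). The median difference of the members was -0.11, beside -0.01 over all genes. The secreted ligands Slit3, Sema3c and Sema3e and the surface ligands Efnb3 and Efna5 fell, and Ntn1, Ephb4, Efna1, Sema6a and Sema4g rose. The count was 11 without met-like sample 3, 10 without metastasis sample 1 and 10 without metastasis sample 2. All 3 metastases carry the same title code, I, and of the met-like primaries only I-9812-MLP shares it. Tissue and code are therefore hard to separate here. With the code as a block, the calls of Efna5 (-0.59 ± 0.27, adjusted p = 0.163), Efna1 (0.60 ± 0.21, adjusted p = 0.0636) and Sema4g (0.32 ± 0.13, adjusted p = 0.117) were lost. Those of Slit3, Sema3c, Sema3e, Efnb3, Ntn1, Ephb4 and Sema6a held. Ephb1, Slit2, Sema3a, Sema4d, Sema4f, Sema5a and Epha3 were called with adjusted p from 0.0182 to 0.0454. All 7 lost the call without metastasis sample 2 (adjusted p 0.0563 to 0.161), and between 1 and 6 of them lost it without any other single sample of the compared groups (adjusted p up to 0.207). With the block all 7 lost it as well (adjusted p 0.0507 to 0.380).

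Slit3 read 7.79, 7.88, 7.81, 7.86 and 7.76 in met-like primaries and 6.92, 6.74 and 6.70 in metastases. Every metastasis lay below every other one of the 22 arrays, and the fall was 1.03 ± 0.07 or 2.05-fold (adjusted p = 1.81e-09). Ntn1, the netrin known as a survival ligand of its dependence receptors, read 8.02, 7.35, 7.73, 7.98 and 7.72 in met-like primaries and 8.86, 8.99 and 8.70 in metastases. Here every metastasis was above every other array (1.09 ± 0.12, 2.13-fold, adjusted p = 7.44e-07). Its receptors moved down: 5 of 7 netrin receptors fell, among them Dcc by 1.44 ± 0.20 (adjusted p = 3.54e-05) and Unc5d by 0.59 ± 0.11 (adjusted p = 0.000973), and none rose. Sema3c fell by 1.15 ± 0.14 (adjusted p = 5.59e-06), to 5.44, 5.86 and 5.83, below all met-like primaries. Sema3e fell by 1.31 ± 0.23 (adjusted p = 0.000521), Efnb3 by 0.57 ± 0.12 (adjusted p = 0.0028) and Efna5 by 0.97 ± 0.22 (adjusted p = 0.00379).

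Ephb4 read 8.14, 8.05 and 8.08 in metastases, above all met-like primaries (0.76 ± 0.10, adjusted p = 8.89e-06). None of the 10 endothelial markers was called by limma in this comparison, and their summed level was 10.78 to 11.16 in met-like primaries and 10.92 to 11.02 in metastases. Efna1, an ephrin-A ligand, read 8.05, 7.98 and 7.70 and rose by 0.74 ± 0.15 (adjusted p = 0.00176). Sema6a, a transmembrane ligand of class A plexins, rose by 0.93 ± 0.22 (adjusted p = 0.00607), although III-8016-MLP at 9.10 lay within the range of the metastases. Sema4g rose by 0.40 ± 0.10 (adjusted p = 0.00624), a call lost without metastasis sample 1 (adjusted p = 0.0544). Of the coreceptors, Met, the receptor of hepatocyte growth factor and a partner of class B plexins, rose by 1.17 ± 0.27 (adjusted p = 0.00531), and 5 of 9 fell. Hepatocyte markers rose in the same comparison, 8 of 9 (median 3.39), with Alb between 12.89 and 13.16 in metastases. Macrophage markers fell, 3 of 8, from a summed level of 11.25 to 12.06 down to 10.65 to 10.89, and acinar markers fell, 4 of 7, from 13.81 to 15.60 down to 12.84 to 13.74. These are whole lesions from liver, and the part of liver, macrophage and acinar RNA in the guidance gene differences was not tested.

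Compared directly with islet tumours, the metastases had 16 members higher and 17 lower, 57.9% against 36.6% of all genes (17.3% higher and 19.3% lower). The median difference of the members was -0.08, beside -0.03 over all genes. Sema3a read 9.81, 9.42 and 9.56 in the metastases against 8.13, 6.89, 7.04, 7.58 and 7.22 in the tumours, without overlap (2.22 ± 0.34, 4.66-fold, adjusted p = 2.25e-05). Sema5a read 9.23, 9.52 and 9.34 in the metastases, above all tumours (2.18 ± 0.24, 4.52-fold, adjusted p = 3.67e-07). Ntn1 differed by 1.63 ± 0.12 or 3.09-fold (adjusted p = 7.57e-10). These were the widest rises among the members. Plxnc1 rose by 1.37 ± 0.19 (adjusted p = 5.59e-06) and Sema4g by 0.79 ± 0.10 (adjusted p = 1.51e-06).

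Ordered by adjusted p, the first members lower than in tumours were Slit3 (-0.74 ± 0.07, adjusted p = 1.01e-07), Sema3f (-0.58 ± 0.07, adjusted p = 1.9e-06) and Efna2 (-0.61 ± 0.09, adjusted p = 1.74e-05). The plexins Plxnb2 (-0.87 ± 0.13, adjusted p = 1.92e-05) and Plxnd1 (-0.61 ± 0.10, adjusted p = 3.7e-05) were lower too. All 3 Slits were lower than in tumours, with Slit1 down by 1.57 ± 0.26 (adjusted p = 6.07e-05) and Slit2 down by 0.60 ± 0.21 (adjusted p = 0.0276). The Slit2 call was lost without tumour sample 1 or 4 or metastasis sample 1 or 3 (adjusted p 0.0551 to 0.102). The receptor Robo2 fell by 2.20 ± 0.29 (adjusted p = 3.29e-06), at 7.37, 7.68 and 8.01 against 9.38 to 10.12 in tumours. All 9 hepatocyte markers were higher in this comparison, and 7 of 10 endothelial, 6 of 7 beta cell and 6 of 7 acinar markers were lower. This comparison shares its tumours with the met-like comparison and its metastases with the one above, so the values of the 3 comparisons are not separate evidence.

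**Figure D5:**
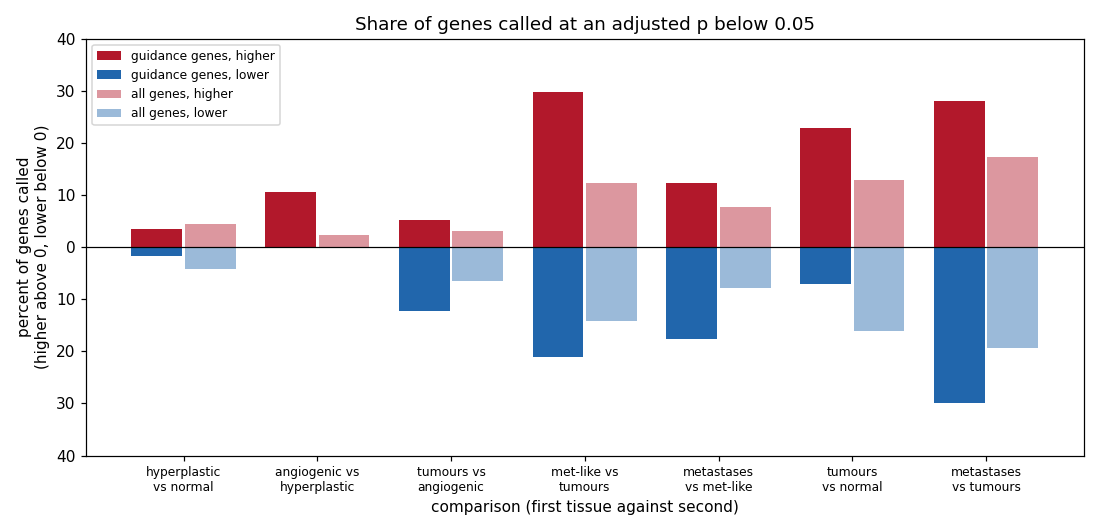
Percent of the 57 guidance genes (dark bars) and of all 19938 genes (light bars) called in each pairwise comparison, with higher calls above 0 and lower calls below 0. The guidance bars stand highest above those of all genes for met-like primaries against tumours (50.9% against 26.5% in both directions together) and are shorter than those of all genes for hyperplastic against normal islets (5.26% against 8.64%).

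Across the 7 pairwise comparisons, 16 members were called in none, 6 in 1, 13 in 2, 10 in 3, 7 in 4 and 5 in 5. Those called in 5 were Ephb4, Plxnd1, Sema3c, Sema4g and Slit3, and each was higher in some comparisons and lower in others. The 16 never called included 3 of 4 netrins (Ntn3, Ntn4 and Ntn5), the ephrins Efna3, Efna4 and Efnb2, the receptors Epha2, Epha4 and Epha5 and the semaphorins Sema3b, Sema3d, Sema4b, Sema5b, Sema6b and Sema6c. The last of them was Plxnb3, the receptor of Sema5a. A member that was not called is not shown to be unchanged.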

How the data were processed

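Log2 intensities of 22 arrays were used as deposited; per the series text the authors processed the array scans with aroma.affymetrix, while the sources used here name no version, no background or normalization method, no summarisation and no chip definition. That the values are log2 was read from their range. Array medians lay between 7.08 and 7.22; precision is limited by how many arrays there are. Of 35511 probe sets, 21789 carried 1 gene symbol, 1621 several and 12101 were not listed in the annotation. The probe set with the highest mean over all arrays stood for each gene, which gave 19938 genes; 4 of the 57 members had more than 1 probe set, and both Sema6b probe sets held identical values.

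Groups came from the tissue labels. A linear model with 1 mean per tissue over all 22 arrays was fitted with limma 3.58.1 (lmFit, eBayes, two-sided) in R 4.3.3, for 7 pairwise comparisons, tumour and metastasis tissues against islets, and an F test. Benjamini-Hochberg adjustment ran over all genes of a comparison. The code was tested on simulated data. Members and gene lists were chosen with earlier results of these data known. Named in full were up to 5 called members per direction with the smallest adjusted p, with family members beside them, and up to 3 genes of a pathway list.

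Same-code samples deviated together between normal and hyperplastic islets (r 0.197 to 0.448 over genes, against -0.368 to -0.0583 for different codes). They did so too between hyperplastic and angiogenic islets (0.353 to 0.479, against -0.393 to -0.0624). Between normal and angiogenic islets the same-code r was weaker (0.0568 to 0.144) but above that of different codes (-0.0904 to 0.039). Deviations from a tissue's mean cancel out within that tissue, so a positive same-code r brings negative values for different codes. The ranges of same and different codes are therefore not separate evidence. Between tumours and met-like primaries the ranges overlapped (-0.0874 to 0.206 for the same code, -0.278 to 0.167 for different codes). The highest correlation between any 2 arrays was 0.9951, and none were identical. Alternatives were a title-code block, quantile normalization, a fit of the compared arrays alone, median centring, no dim genes, all probe sets, probe set means, array weights, trended and robust variance, a fold floor and leaving out each array. Promoters are RefSeq's for GRCm38.p6. Figures were drawn with matplotlib 3.10.9.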

Additional observations from a re-analysis of the deposited data

Results flagged for a closer look

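For each of the 57 guidance genes, the 5 islet tumours and the 5 met-like primaries were searched for a sample far from the others, measured as its gap to the nearest sample over the range of the group. Of 114 such groups 6 held one, and all 6 were met-like primaries. The cutoff is meant to pass about 1 in 20 groups by chance. Genes on 1 array are not independent, so the count cannot be judged against that rate. Sample III-8016-MLP had the lowest Sema3e, the ligand of Plxnd1, at 7.09, with the nearest sample at 8.29. Sample I-9812-MLP had the lowest Plxnc1 at 7.67, with the nearest at 8.03. Ephb3 was lowest in II-648-MLP at 7.30, with the nearest at 7.75. The other 3 were smaller steps: Epha1 at 6.44 in II-6413-MLP, Sema6b at 7.30 in III-8023-MLP, and Sema5b, the highest of its group, at 6.99 in III-8023-MLP.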

How the results depend on the processing

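No named difference of a guidance gene reversed its sign in any alternative, and 21 of 115 kept their side of the threshold in all of them, the floor on the difference included. With the title code as a block (pairing as described for the islets), 5 members were called in hyperplastic against normal islets. The block gave 10 in metastases against met-like primaries and 10 in tumours against normal islets, and no other count of calls moved by over 1.5 times. Between tumours, met-like primaries and metastases, the r of same-code and different-code samples overlapped. That check compared only the codes, so a closer pairing by the numbers that follow them in the titles was not tested. A fit of only the compared arrays gave 6 calls in hyperplastic against normal islets, and array weights gave 14 in angiogenic against hyperplastic islets and 26 in metastases against met-like primaries. Asking also for a log2 difference of at least 1 left 1 member in hyperplastic against normal islets, 0 in angiogenic against hyperplastic islets, 2 in tumours against angiogenic islets, 4 in met-like primaries against tumours, 5 in metastases against met-like primaries, 4 in tumours against normal islets, 7 in metastases against tumours and 3 in all tumour tissues against islets. Leaving out 1 array at a time gave 1 to 4 calls in hyperplastic against normal islets, 3 to 10 in angiogenic against hyperplastic islets, 5 to 12 in tumours against angiogenic islets, 26 to 30 in met-like primaries against tumours, 10 to 19 in metastases against met-like primaries, 15 to 18 in tumours against normal islets, 25 to 33 in metastases against tumours, 26 to 30 in all tumour tissues against islets and 41 to 46 in the F test. The cause of these shifts was not tested, beyond the fewer samples or the added floor that some alternatives bring by construction. Small groups limit what 3 arrays can show, and 5 members lay in the dimmest 25% of genes, where differences are hard to see. The Sema4d difference between metastases and tumours was 0.17 with the mean of its probe sets (adjusted p = 0.076), and the Sema3f difference between tumours and normal islets 0.13 with centred arrays (adjusted p = 0.193).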

Other observations

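Partners of the guidance families that are not members also differed between tumours and normal islets. Dpysl5, a collapsin response mediator protein, was higher by 1.46 ± 0.15 (adjusted p = 2.32e-07), with tumours at 7.77 to 8.74 and normal islets at 6.82 to 7.08. Nrcam, a cell adhesion molecule that binds neuropilins, was higher by 1.30 ± 0.16 (adjusted p = 2.89e-06), with tumours at 7.97 to 8.84 and normal islets at 7.06 to 7.19. Srgap2, a GTPase-activating protein that binds Robo, was higher by 1.00 ± 0.10 (adjusted p = 2.06e-07), with tumours at 8.39 to 8.77 and normal islets at 7.48 to 7.72. For these 3 genes no tumour overlapped a normal islet. Met was lower by 1.15 ± 0.27 (adjusted p = 0.00257), although 1 tumour lay within the normal range of 7.96 to 8.22.

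By list, of 20 plexin and semaphorin effectors 4 were higher and 3 lower in tumours than in normal islets, of 18 Eph effectors and sheddases 5 were higher and 3 lower, of 12 Slit-Robo effectors 2 were higher and 2 lower, of 7 netrin receptors 2 were higher, and none of the 4 Robo receptors or 2 neuropilins was called. Over all genes 29.0% were called, 13.0% higher and 16.1% lower. The lists were chosen with earlier results of these data known.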
